A study of Homo sapiens with 12 samples.

Results

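U251 cells that received ETV6 siRNA together with NFKB1 siRNA were compared with U251 cells that received NFKB1 siRNA without ETV6 siRNA. By their labels the groups differ in the ETV6 siRNA, and limits on siRNA amount and handling are given below. The comparison rests on 6 of the 12 arrays of the series, chosen by their sample titles: 3 arrays of double siRNA and 3 arrays of NFKB1 siRNA. U251 is an established human glioblastoma cell line. The siRNAs were ON-TARGETplus SMARTpool reagents, which mix several siRNAs to one gene, and were delivered with the lipid reagent Dharmafect 2. All 6 cultures carried NFKB1 siRNA at 50 nM, and the double siRNA cultures also carried ETV6 siRNA at 50 nM. The labels do not say whether control siRNA topped up the NFKB1 siRNA cultures, so the ETV6 sequence and a larger total amount of siRNA cannot be told apart. The other 6 arrays, 3 of ETV6 siRNA and 3 of an siRNA without a human target, each at 50 nM, show the same ETV6 siRNA without NFKB1 siRNA. Since the labels do not state that replicate arrays stem from separate cultures, the p-values below describe how these samples scatter, and that scatter may be purely technical.

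ETV6 is a transcription factor of the ETS family that acts mainly as a repressor. ETS factors bind DNA at a GGAA core, and many family members share target sites. NFKB1 encodes p105, the precursor of the NF-kB subunit p50. NF-kB dimers switch on cytokine, adhesion and survival genes, and p50 dimers without an activation domain can repress them.

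Levels are given as deposited, on a log2 scale of probe set signal, where 1 unit is a factor of 2. For each gene, 1 probe set was used, and 7760 genes were tested. Differences are log2 values of double siRNA minus NFKB1 siRNA with the standard error (SE) of the limma model, and a gene was called when its limma p, adjusted over all genes tested, was under 0.05.

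The 3 double siRNA arrays stood apart from the other 9 in some measures of the whole array and of control probe sets, and not in others. The median level of the array was 8.33 to 8.38 in double siRNA, against 8.08 to 8.19 in NFKB1 siRNA and at most 8.27 in the other arrays. The poly-A spike-in controls, RNAs usually added to a sample before labelling, had median levels of 7.45 to 7.56 in double siRNA and of 7.91 to 8.83 in the other 9 arrays. The ACTB control probe sets at the 3' end exceeded those at the 5' end by 2.05 to 2.16 in double siRNA and by 1.52 to 1.91 in the other 9 arrays, a measure sensitive to RNA length. The same measure for GAPDH was 0.457 to 0.510 in double siRNA and 0.374 to 0.441 in NFKB1 siRNA, without overlap, but the double siRNA values lay within the range of the other 9 arrays. The hybridization controls overlapped, with median levels of 10.37 to 10.68 in double siRNA and of 10.40 to 11.16 in the other 9 arrays. The labels give no processing batch, so an effect of handling and an effect of the added siRNA cannot be told apart, and the part of these array-wide measures in the results was not tested. All 9 astrocyte and glioblastoma markers looked up were measured and passed the filter on low levels, with mean levels of 14.46 (NFKB1 siRNA) and 14.52 (double siRNA) for VIM and of 13.43 and 12.97 for GFAP. Of 23 markers of immune, endothelial, epithelial, neuronal and oligodendrocyte cells 3 had a probe set, and only the epithelial keratin KRT18 passed the filter, with mean levels of 8.03 and 7.35. The neuronal SYT1 had mean levels of 6.28 (NFKB1 siRNA) and 7.78 (double siRNA), and the oligodendrocyte MBP of 6.40 and 7.45, both below the filter and not tested.

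ETV6 mRNA fell when the ETV6 siRNA was added. Its levels were 8.73, 8.72 and 8.64 in the NFKB1 siRNA arrays and 7.44, 7.36 and 7.29 in the double siRNA arrays. The groups did not overlap, and the difference was -1.33 (SE 0.11, adjusted p = 4.98e-07 by limma), which left 39.7% of the level with NFKB1 siRNA. A second ETV6 probe set differed by -2.04 in the same comparison. In the arrays without NFKB1 siRNA the ETV6 levels were 9.02, 9.02 and 8.58 with control siRNA and 6.80, 6.78 and 6.60 with ETV6 siRNA, a difference of -2.14. On this probe set the drop was smaller by 0.81 when NFKB1 siRNA was present (limma test of the difference between both drops, adjusted p = 0.000358). On the second ETV6 probe set the drops were -2.33 without and -2.04 with NFKB1 siRNA, and their difference of 0.30 was not called (adjusted p = 0.080 by limma over all probe sets).

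NFKB1 mRNA had levels of 6.95, 6.75 and 6.05 in the NFKB1 siRNA arrays and of 6.50, 6.58 and 6.57 in the double siRNA arrays. The groups overlapped because the third NFKB1 siRNA array was the lowest of all. The difference was -0.04 (SE 0.18, adjusted p = 0.847 by limma) and was -0.30 (adjusted p = 0.00729) without that array, so whether the knock-down of NFKB1 was equally deep in both groups depends on it. All 6 levels lay below the control siRNA levels of 7.22, 7.24 and 7.49. The only NFKB1 probe set was dim, with a mean under the filter on low levels (7.54). It was tested because the siRNA targets were exempt, so the depth of the knock-down is less certain.

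**Figure D1:**
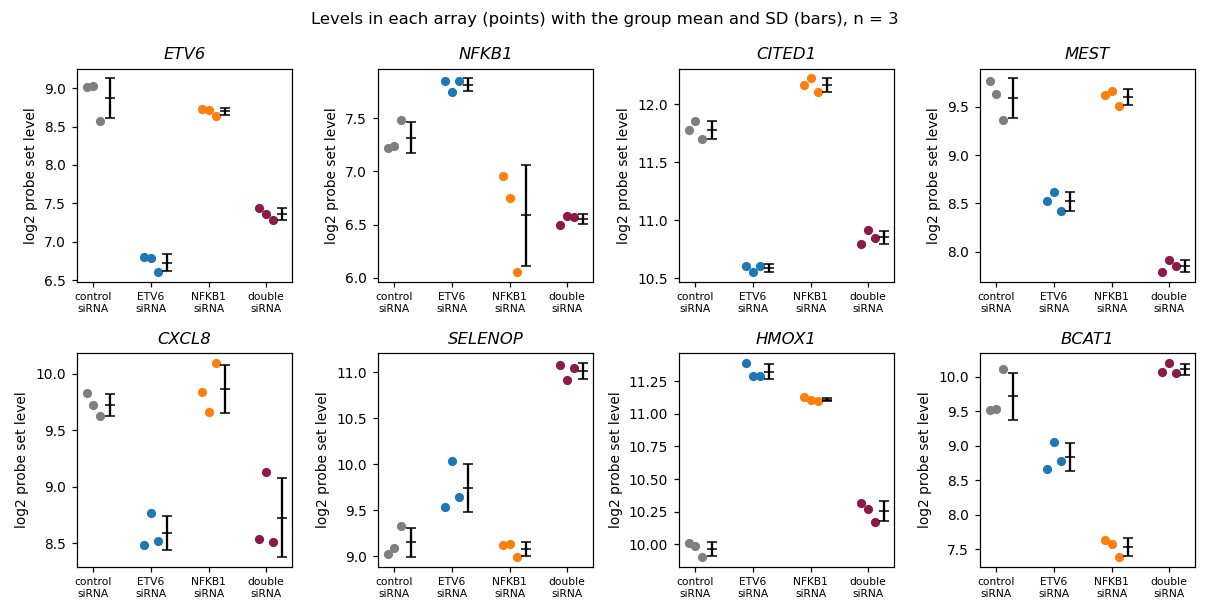
Log2 level of 8 genes in each of the 12 arrays (points, 4 siRNA groups on the x axis), with the group mean and SD (n = 3) beside the points. ETV6 and CITED1 are low in both groups with ETV6 siRNA, HMOX1 moves in opposite directions when ETV6 siRNA is added with and without NFKB1 siRNA, SELENOP is highest in double siRNA and BCAT1 lowest in NFKB1 siRNA.

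The difference between double siRNA and NFKB1 siRNA ran through most of the transcripts measured. Of the 7760 genes, 6911 were called (89.1%), 2923 of them higher (37.7%) and 3988 lower (51.4%) in double siRNA. The differences were not symmetric. Over 2-fold, 1184 genes were called higher (15.3%) and 35 lower (0.451%), while over 1.5-fold the counts were 1875 (24.2%) and 1955 (25.2%). The filter on low levels used the mean of all 12 arrays, double siRNA included, and its part in these counts was not tested. The median over all genes was -0.16, and the 5th and 95th percentiles were -0.81 and 1.67. The 3 double siRNA arrays lay wholly above or below the 3 NFKB1 siRNA arrays for 7047 genes (90.8%). Against that background, a call by itself does not set a gene apart, and the size of a difference and its place among the other 6 arrays carry more information.

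The share of calls that were higher depended on the scaling of the arrays. It was 42.3% with the deposited values, 37.7% after quantile normalization and 33.7% after each array was shifted to the same median, which moved the median of all genes by -0.10 and -0.21. Differences of small size are therefore relative to the scaling chosen.

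**Figure D2:**
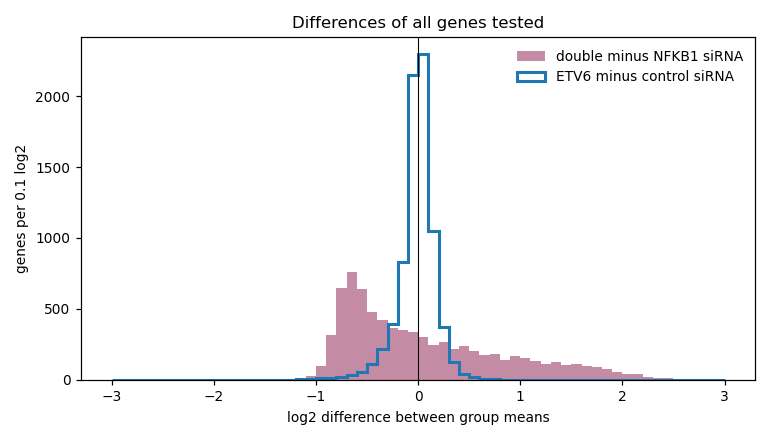
Number of genes per 0.1 log2 (y axis) by log2 difference (x axis) for the 7760 genes tested. Filled is double siRNA minus NFKB1 siRNA and the line is ETV6 siRNA minus control siRNA. Double siRNA against NFKB1 siRNA had a broad distribution from -1.75 to 2.82, with a peak below 0 and a long tail above 0. ETV6 siRNA against control siRNA had a narrow one around 0.

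The arrays of the other 2 groups show which side of the comparison stood out. Of the 2923 genes called higher, the double siRNA arrays lay above all 9 other arrays for 2293 and the NFKB1 siRNA arrays below all 9 others for 1440, with 1033 genes in both sets. Of the 3988 called lower, the double siRNA arrays lay below all others for 3481, the NFKB1 siRNA arrays above all others for 915, and both held for 692. The 6 arrays with ETV6 siRNA lay above the 6 without it for 144 of the genes called higher and below them for 185 of those called lower.

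Different probe sets of a gene usually gave the same direction. Of the 3886 tested genes with over 1 probe set, 270 (6.95%) had probe sets called in opposite directions. Of the 1184 genes called over 2-fold higher, 793 had over 1 probe set, and for 683 of these every probe set was called higher.

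The lowest value of all was that of MEST, an imprinted gene of the alpha/beta hydrolase fold family expressed from the paternal allele. Its levels were 9.63, 9.67 and 9.51 with NFKB1 siRNA and 7.79, 7.91 and 7.85 with double siRNA. MEST fell 3.36-fold, a difference of -1.75 (SE 0.09, adjusted p = 1.34e-07 by limma). CITED1, a transcriptional coactivator that binds CBP and p300, had levels of 12.17, 12.23 and 12.11 against 10.80, 10.91 and 10.85. It fell 2.48-fold, a difference of -1.31 (SE 0.05, adjusted p = 7.13e-08). For both genes the gap between the groups was many times the spread within either group.

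CXCL8, the neutrophil-attracting chemokine interleukin 8 and a classic NF-kB target, had levels of 9.84, 9.66 and 10.09 with NFKB1 siRNA and of 8.54, 9.13 and 8.51 with double siRNA. The groups did not overlap, though the second double siRNA array stood above the other two. CXCL8 fell by 1.14 (SE 0.16, adjusted p = 2.53e-05 by limma), and its second probe set differed by -0.83.

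The other genes among the 12 lowest values had various roles. The replication licensing factor CDT1 fell from 9.57, 9.49 and 9.40 to 8.23, 8.43 and 8.22, a difference of -1.19. EIF4EBP1, the repressor of cap-dependent translation 4E-BP1, fell from 10.35, 10.34 and 10.24 to 9.15, 9.28 and 9.20, a difference of -1.10. SLC1A4, a neutral amino acid transporter, differed by -1.14, the purine synthesis enzyme PFAS by -1.07 and the nucleoplasmin family histone chaperone NPM3 by -1.08. The E3 ligase TRIM16 differed by -1.15, the shelterin subunit ACD by -1.10 and NT5DC2 by -1.11. In each of these genes the 3 double siRNA arrays lay below all 9 other arrays, and ETV6 siRNA alone gave at most a small difference (from -0.30 for TRIM16 to -0.01 for NT5DC2).

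The increases were larger. OGFRL1 rose from 7.96, 7.96 and 7.71 with NFKB1 siRNA to 10.68, 10.62 and 10.79 with double siRNA, a 7.05-fold change (2.82, SE 0.20, adjusted p = 3.23e-07 by limma). ACSL4, the ligase that activates arachidonic acid for membrane phospholipids, rose from 6.71, 6.91 and 6.11 to 9.30, 9.46 and 9.39, a 6.99-fold change (2.81, SE 0.23, adjusted p = 5.76e-07). RB1CC1, the autophagy scaffold FIP200, rose from 8.23, 8.15 and 7.64 to 10.48, 10.50 and 10.58 (2.51, SE 0.25). For all of them the groups were separated by more than 2 log2 units, and the double siRNA arrays were the highest of the 12.

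The rest of the 12 highest values also came from genes of various roles. OSBPL8, a lipid transfer protein of the endoplasmic reticulum, differed by 2.58 and NRIP1, a corepressor of nuclear receptors, by 2.60. SMAD5, which carries bone morphogenetic protein signals, differed by 2.49, DSEL, named for its likeness to dermatan sulfate epimerase, by 2.50, and HYCC1, which encodes hyccin, by 2.54. The pro-apoptotic factor PAWR differed by 2.49, EEIG2 by 2.59, and the secreted protease inhibitor PI15 by 2.70. BCAT1, the cytosolic branched-chain amino acid transaminase that many gliomas express, rose from 7.64, 7.57 and 7.39 to 10.07, 10.20 and 10.05 (2.57, SE 0.15, adjusted p = 1.55e-07 by limma). DSEL had mean levels of 7.23 with control siRNA, 7.39 with ETV6 siRNA and 6.70 with NFKB1 siRNA. It passed the filter at 7.54 only through its double siRNA mean of 9.20. NRIP1, EEIG2 and PAWR too passed only through double siRNA, since their mean over the other arrays was under 7.54. Means with control, ETV6 and NFKB1 siRNA were 7.70, 7.69 and 6.90 for NRIP1. In the same order they were 7.60, 7.79 and 7.10 for EEIG2 and 7.79, 7.39 and 6.54 for PAWR. Genes named further below, such as BRIP1, TP53INP1 and VCAM1, also passed only in this way.

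Some of these values depended on the probe set. The lowest other probe set differed by -0.04 for BCAT1, -0.41 for PAWR, 0.41 for PI15, 0.44 for OGFRL1, 0.45 for SMAD5, 0.78 for DSEL and 0.96 for HYCC1. For BCAT1 the low value came from a dim probe set with levels near 6.1 in both groups. NRIP1, OSBPL8 and RB1CC1 differed by at least 2.12 on every probe set, and ACSL4 and EEIG2 had 1 probe set each.

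Far fewer genes were called when ETV6 siRNA was set against control siRNA. Of the 7760 genes 827 were called in ETV6 siRNA against control siRNA (10.7%), 340 higher (4.38%) and 487 lower (6.28%). The comparisons share no array. Called higher in both were 77 genes (0.992%), 2.63% of the genes higher in double siRNA and 22.6% of those higher in ETV6 siRNA. Called lower in both were 90 genes (1.16%), 2.26% and 18.5% of the respective lists. Opposite calls were more frequent, with 576 genes in all (7.42%). Of these 356 were higher in double siRNA and lower with ETV6 siRNA alone, 73.1% of the genes lower with ETV6 siRNA alone. The reverse held for 220, 64.7% of the genes higher with ETV6 siRNA alone. The 22.6% and 73.1% stand beside 37.7% of all genes called higher in double siRNA. The 18.5% and 64.7% stand beside 51.4% of all genes called lower. The counts depended on single arrays. Without the third control siRNA array 257 genes were called higher in both, 159 lower in both and 472 in opposite directions. Over all 12 arrays left out in turn the counts ranged from 30 to 257, from 45 to 159 and from 292 to 729, and each control and ETV6 siRNA array moved at least 1 of them by over 1.5 times, as did the first double siRNA array (51 higher in both).

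The difference between the ETV6 siRNA effects was tested for each gene in the same model. It was called for 6698 genes (86.3%), which is 2834 with a higher value (36.5%) and 3864 with a lower value (49.8%) when NFKB1 siRNA was present. ETV6 and control siRNA were each used at 50 nM, while double siRNA may have had more siRNA in total than NFKB1 siRNA. A part of total siRNA amount in this difference therefore cannot be told apart.

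**Figure D3:**
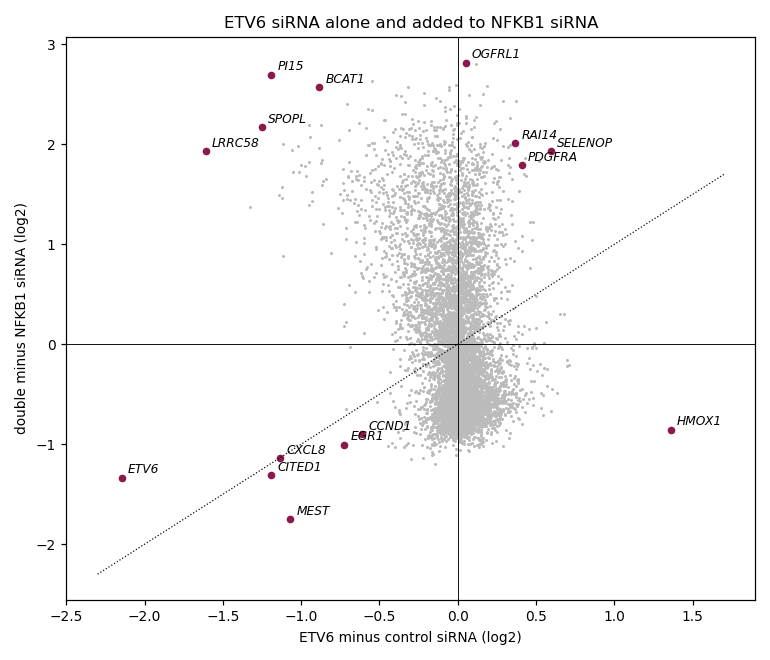
Log2 difference of each of the 7760 genes when ETV6 siRNA was added to NFKB1 siRNA (y axis) against the difference when ETV6 siRNA was used alone (x axis), with the line of equal differences dotted. CITED1, CXCL8, EGR1 and CCND1 lie in the lower left near that line, SELENOP, RAI14 and PDGFRA to the upper right well above it, and HMOX1, LRRC58, PI15, BCAT1 and SPOPL in the quadrants of opposite sign.

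A small group of genes fell with ETV6 siRNA whether or not NFKB1 siRNA was present. CITED1 had levels of 11.78, 11.86 and 11.70 with control siRNA and 10.61, 10.55 and 10.61 with ETV6 siRNA, a difference of -1.19 beside -1.31 in the presence of NFKB1 siRNA. The 6 arrays with ETV6 siRNA all lay below the 6 without it, and the difference between the effects was -0.12 (SE 0.08, adjusted p = 0.152 by limma). CXCL8 had levels of 9.83, 9.72 and 9.63 against 8.49, 8.76 and 8.52, a difference of -1.13 beside -1.14. The effects differed by -0.01 (SE 0.22, adjusted p = 0.98), an error that leaves room for a moderate difference.

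EGR1, the immediate early zinc finger factor induced by growth signals, fell 2.01-fold when ETV6 siRNA was added to NFKB1 siRNA, and its difference was -0.73 when ETV6 siRNA was used alone. Its levels were 8.63, 8.65 and 8.29 with NFKB1 siRNA and 7.67, 7.49 and 7.39 with double siRNA. CCND1, which encodes the G1 cyclin D1, had differences of -0.90 and -0.61, and fell from 8.67, 8.94 and 8.77 to 7.78, 8.17 and 7.72 in the presence of NFKB1 siRNA. The differences between the effects were -0.28 (SE 0.18, adjusted p = 0.16) for EGR1 and -0.29 (SE 0.15, adjusted p = 0.0924) for CCND1 by limma and were not called. MEST fell in both comparisons and further with NFKB1 siRNA present: its difference was -1.07 with ETV6 siRNA alone, and the effects differed by -0.68 (SE 0.13, adjusted p = 0.00044).

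The genes called higher in both comparisons with the highest mean of both differences are given next. The 95th percentile over all genes was 1.67 for double siRNA against NFKB1 siRNA and 0.24 for ETV6 siRNA alone. A larger rise in double siRNA therefore follows largely from that choice. SELENOP, the secreted selenium carrier, had levels of 9.12, 9.13 and 8.99 with NFKB1 siRNA and 11.08, 10.92 and 11.05 with double siRNA, a difference of 1.93 beside 0.59 with ETV6 siRNA alone. The difference of 1.34 between the effects was called (SE 0.17, adjusted p = 2.29e-05 by limma). The receptor tyrosine kinase PDGFRA, a common driver in glioma, rose from 10.13, 10.04 and 9.99 to 11.89, 11.75 and 11.89, a difference of 1.79 beside 0.41. The differences were 2.01 and 0.37 for RAI14, an actin-binding protein, 1.83 and 0.52 for the phospholipase PNPLA8, 1.71 and 0.42 for RND3, and 1.68 and 0.27 for GLDN, the node of Ranvier protein gliomedin. Other probe sets gave 0.24 for PDGFRA and -0.25 for GLDN in double siRNA against NFKB1 siRNA. Mean levels with NFKB1 siRNA lay below those with control siRNA for RAI14 (8.51 against 9.52) and PDGFRA (10.05 against 10.88). The same held for PNPLA8 (7.59 against 8.17) and RND3 (8.78 against 9.33). They were close for SELENOP (9.08 against 9.15) and GLDN (9.72 against 9.80).

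HMOX1, the stress-inducible heme oxygenase, had the lowest difference between the effects. Its levels were 10.01, 9.99 and 9.90 with control siRNA, 11.39, 11.29 and 11.29 with ETV6 siRNA, 11.13, 11.11 and 11.10 with NFKB1 siRNA, and 10.32, 10.27 and 10.17 with double siRNA. Each siRNA alone was accompanied by more HMOX1 mRNA than control siRNA in every array, and the double siRNA arrays were lower than both single siRNA groups and above the control arrays. The ETV6 siRNA effect was 1.36 without and -0.86 with NFKB1 siRNA, and these differed by -2.22 (SE 0.07, adjusted p = 2.71e-08 by limma). HECTD3, a HECT domain ubiquitin ligase, had a difference between the effects of -1.31, and TMEM158 and C8orf58 of -1.27 each.

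At the other end stood genes whose levels were below those of control siRNA in every array of either single siRNA and not in double siRNA. LRRC58 had levels of 9.29, 9.22 and 9.95 with control siRNA, 7.86, 8.11 and 7.66 with ETV6 siRNA, 7.91, 7.74 and 7.59 with NFKB1 siRNA, and 9.67, 9.68 and 9.68 with double siRNA. The double siRNA arrays lay within the range of the control arrays, and both single siRNA groups were below it. The ETV6 siRNA effect was -1.61 without and 1.93 with NFKB1 siRNA, and these differed by 3.54 (SE 0.24, adjusted p = 1.32e-06 by limma). SPOPL, a substrate adaptor of cullin 3 ubiquitin ligases, had effects of -1.25 and 2.17, BCAT1 of -0.88 and 2.57, and PI15 of -1.19 and 2.70. Their differences between the effects were 3.42, 3.46 and 3.89.

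Promoter sequence was looked at because CXCL8 stood among the genes lowest in both comparisons and because ETV6 binds ETS sites. Promoters were taken from RefSeq (GRCh38.p14), as 250 bases before and 50 after a gene's start, and the first entry was used where a gene had several. The CXCL8 promoter is shown because it holds a sequence of the kB type, GGAATTTCC, searched on both strands after CXCL8 had been seen and present in 129 of 27305 promoters (0.472%). It lies at chr4:73740319-73740568 on the plus strand, and the capitals mark the match, which begins 91 bases before the start.

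CXCL8: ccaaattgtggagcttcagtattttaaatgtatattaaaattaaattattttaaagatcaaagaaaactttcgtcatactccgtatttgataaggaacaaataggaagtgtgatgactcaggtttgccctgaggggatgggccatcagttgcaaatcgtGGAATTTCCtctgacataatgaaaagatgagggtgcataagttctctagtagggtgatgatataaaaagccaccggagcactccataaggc

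The ETS sequence CCGGAAGT, searched on both strands, was found in 1211 of the 27305 promoters (4.44%) and in 660 of the 6576 tested genes with a promoter (10.0%). The share was 9.54% (238 of 2494) among genes called higher in double siRNA, 10.3% (349 of 3383) among those called lower and 10.4% (73 of 699) among those not called. These shares were close to one another. Among genes called the same way in both ETV6 siRNA comparisons it was 5.04% (7 of 139). Of these 7 the promoters of GTF2H1, a subunit of the transcription and repair factor TFIIH, and LMNB2, which encodes lamin B2, are shown as the member called higher and the member called lower with the largest summed difference. They lie at chr11:18322317-18322566 on the plus strand and chr19:2456960-2457209 on the minus strand, each is printed along its gene's strand, and the capitals mark the motif on the opposite strand, beginning 20 and 94 bases before the start.

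GTF2H1: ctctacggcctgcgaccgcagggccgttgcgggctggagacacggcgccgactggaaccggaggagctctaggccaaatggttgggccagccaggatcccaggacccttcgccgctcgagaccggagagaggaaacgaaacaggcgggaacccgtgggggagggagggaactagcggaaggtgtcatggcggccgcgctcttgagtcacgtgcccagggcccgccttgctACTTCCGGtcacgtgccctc
LMNB2: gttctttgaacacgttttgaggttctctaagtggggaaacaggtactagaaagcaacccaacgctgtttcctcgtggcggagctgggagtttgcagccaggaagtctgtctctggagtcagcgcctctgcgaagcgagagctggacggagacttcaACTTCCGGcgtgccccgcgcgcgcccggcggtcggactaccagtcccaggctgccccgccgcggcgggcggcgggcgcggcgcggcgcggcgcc

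GTF2H1 rose from 8.05, 8.15 and 8.11 with NFKB1 siRNA to 9.39, 9.42 and 9.42 with double siRNA, a difference of 1.31 beside 0.27 with ETV6 siRNA alone. LMNB2 fell from 10.08, 10.10 and 10.05 to 9.22, 9.29 and 9.22, a difference of -0.83 beside -0.27. A match says that these letters stand in the window and nothing about binding.

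Gene lists by role are given next as counts of members called, for comparison with 37.7% higher and 51.4% lower among all genes and with their median of -0.16. The named members of a list are those with the smallest adjusted p, and others named were chosen after their values were seen. Rises and falls are relative to NFKB1 siRNA, and for some members NFKB1 siRNA was the group that stood apart. HSP90AA1, for example, had mean levels of 13.28 with control siRNA, 13.28 with ETV6 siRNA, 12.28 with NFKB1 siRNA and 13.38 with double siRNA. How often each side stood apart among all genes is given above. Among ETS family factors 15 were tested, and 10 were higher and 5 lower in double siRNA (median 0.77, and -0.69 when genes under the 50th percentile of level were left out). ELK3, a ternary complex factor, rose from 9.22, 9.09 and 9.03 to 10.24, 10.39 and 10.37, a difference of 1.22. ELF1 differed by 1.36 and ETS1 by 0.86, while GABPA, the DNA-binding subunit of GABP, differed by 2.17. ETV5 (-0.90), the repressor ERF (-0.88) and ELK1 (-0.69) fell together with ETV6 itself.

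Among NF-kB subunits and regulators 12 were tested, with 2 higher and 7 lower (median -0.57). The kinases MAP3K7 (TAK1) and CHUK (IKK alpha) rose by 1.59 and 1.52. The A20-binding inhibitors TNIP1 and TNIP2 fell (-0.79 and -0.68), and the subunit RELA fell from a mean of 9.47 to 8.64, a difference of -0.83. IKBKB, the other catalytic IKK subunit, differed by -0.09 and was not called.

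Cytokines, chemokines and their receptors split, with 7 higher and 5 lower of 13 (median 0.31, and -0.32 with the filter at the 50th percentile). IL6ST, the gp130 signalling receptor of the interleukin 6 family, rose from 9.57, 9.42 and 9.51 to 11.92, 11.77 and 11.89, a difference of 2.36. IL13RA1 rose by 1.08 and the adhesion molecule VCAM1 by 1.06. The ligand IL6 differed by 0.33 and CCL2 by 0.31, both called higher with the deposited values. After the arrays were shifted to the same median IL6 differed by 0.12 (adjusted p = 0.175 by limma) and CCL2 by 0.096 (adjusted p = 0.368), and neither was called after quantile normalization. The list had 4 higher and 6 lower after median shift, with a median of 0.096. By contrast, CXCL8 and the TWEAK receptor TNFRSF12A (-0.57) fell.

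Of 22 MAPK feedback and immediate early genes 16 were lower and 3 higher (median -0.39). KLF2 fell by 0.79, IER2 by 0.59 and the AP-1 member FOSL1 by 0.77, MYC differed by -0.50 and JUN by -0.43, all called. The exceptions included the RAS pathway inhibitor SPRED1 (1.53) and KLF6 (1.03). Receptor tyrosine kinases divided, with 8 higher and 9 lower of 19 (median -0.02). EPHA3 rose by 1.94, DDR2 by 1.78 and PDGFRA by 1.79, and EPHB3 fell by 1.03. Targets and factors of TGF-beta and YAP had 13 higher and 13 lower of 31 (median -0.04). TGFB2 (1.14), TEAD1 (1.04) and WWTR1 (1.02) rose and PMEPA1 (-0.88) fell, and a WWTR1 probe set gave -0.85.

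**Figure D4:**
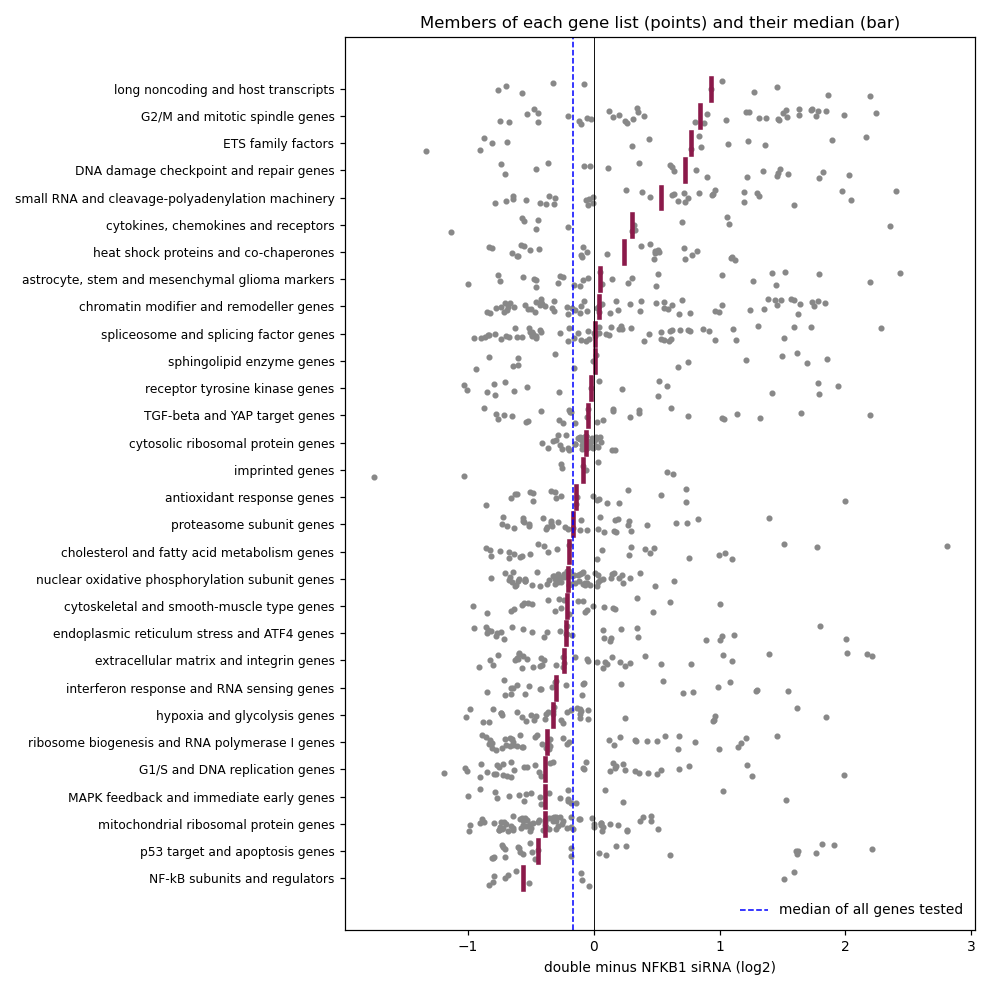
Log2 difference of double siRNA minus NFKB1 siRNA (x axis) for each tested member (points) of 30 gene lists (y axis) with the list median (bar), the median of all genes tested at -0.16 (dashed) and 0 (solid). Long noncoding transcripts, mitotic genes and ETS factors have the highest medians and NF-kB regulators the lowest, and most lists hold members on both sides of 0.

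Of the cell cycle lists, G2/M lay far from the shares over all genes and G1/S close to them. Of 42 genes of G2/M and the mitotic spindle 30 were higher and 8 lower (median 0.84). The kinesins KIF23 and KIF11 rose by 1.77 and 1.53, anillin (ANLN) 2.83-fold and cyclin A2 (CCNA2) by 0.88. KIF23 had levels of 8.29, 8.48 and 8.37 against 10.13, 10.12 and 10.20, without overlap. The kinase AURKB (-0.74) and the anaphase activator CDC20 (-0.68) fell. With ETV6 siRNA alone 26 of the 42 were lower, beside 6.28% of all genes. The difference between the effects was called for 38 of the 42, close to the 86.3% of all genes. Of 42 genes of G1/S and replication 23 were lower and 15 higher (median -0.39). These shares, 54.8% lower and 35.7% higher, were near the 51.4% and 37.7% of all genes. The helicase subunits MCM5 (-1.01) and MCM2 (-0.85), cyclin E1 (CCNE1, -0.69) and thymidine kinase TK1 (-1.03) fell, and the polymerase subunit POLA1 (1.22) and CDK6 (1.99) rose.

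Of 22 DNA damage and repair genes 15 were higher and 4 lower (median 0.72). NBN, of the MRE11 complex, rose by 2.03, the helicase BRIP1 by 1.82, the BRCA1 partner BARD1 by 1.47 and TP53BP1 by 0.60, while MDC1 fell by 0.74. Of 29 p53 target and apoptosis genes 17 were lower and 9 higher (median -0.44). The genes called higher included inhibitors and promoters of cell death: the inhibitor XIAP (1.91), the BH3-only factor PMAIP1 (1.61), TP53INP1 (1.76) and MCL1 (0.61) rose, and BAK1 (-0.81) and CDKN1A (-0.47), the CDK inhibitor p21, fell.

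Of 75 mitochondrial ribosomal protein genes 57 were lower and 7 higher (median -0.39), with MRPS18A (-0.89), MRPL11 (-0.75), MRPL23 (-0.72) and MRPS34 (-0.64) among them. Of 66 nuclear subunits of oxidative phosphorylation 40 were lower and 10 higher (median -0.20), such as the complex I subunits NDUFA3 (-0.63), NDUFA9 (-0.62), NDUFV3 (-0.60) and NDUFS3 (-0.54). Of 46 genes of ribosome biogenesis and RNA polymerase I 29 were lower and 16 higher (median -0.38). POLR1D (-0.70) and RRP12 (-0.83) fell, and the helicase DDX21 (1.46) and the polymerase I factor RRN3 (1.21) rose. Cytosolic ribosomal protein genes moved little: 16 of 51 were lower, 2 higher and 33 not called (median -0.06), RPL36 (-0.42) and RPL18 (-0.36) being the lowest. After the arrays were shifted to the same median 48 of these 51 were called lower. Of 37 proteasome subunit genes 20 were lower and 10 higher (median -0.17), with PSMB5 (-0.64), PSMD8 (-0.56) and PSMD3 (-0.55) lower and the activator PSME4 (1.39) higher.

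Metabolic and stress lists held genes called in both directions, beside 51.4% of all genes called lower. Of 37 hypoxia and glycolysis genes 26 were lower and 6 higher (median -0.32). HILPDA, an inhibitor of lipid droplet breakdown, fell by 1.02 and the glycolytic regulator PFKFB4 by 0.88. For both, NFKB1 siRNA was the highest group. HILPDA means were 9.62 with control siRNA, 10.52 with NFKB1 siRNA and 9.50 with double siRNA. PFKFB4 means were 10.69, 11.70 and 10.82 in the same order. The demethylase KDM3A (0.96) and the oxygen sensor EGLN1 (0.95) rose. Another EGLN1 probe set gave -0.47, and the mean of its probe sets was 0.02 and not called (adjusted p = 0.735 by limma). Of 32 genes of endoplasmic reticulum stress and ATF4 19 were lower and 11 higher (median -0.22). The amino acid genes SLC7A5 (-0.86), PHGDH (-0.82) and ASNS (-0.73) fell, and the stress sensor kinase EIF2AK3 (PERK, 1.12) rose. Of 23 antioxidant genes 13 were lower and 6 higher (median -0.14), with HMOX1, KEAP1 (-0.63) and MAFG (-0.61) lower and catalase (CAT, 0.73) and the cystine transporter SLC7A11 (2.00) higher.

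Of 29 genes of cholesterol and fatty acid metabolism 15 were lower and 12 higher (median -0.20). ABCA1, the cholesterol exporter, rose by 1.52 and the elongase ELOVL6 by 1.78 beside ACSL4, and the desaturase FADS2 fell by 0.86. Of 16 sphingolipid enzyme genes 7 were higher and 6 lower (median 0.01). The ceramide transporter CERT1 (1.62), the glucosylceramide synthase UGCG (2.83-fold), the acid ceramidase ASAH1 (1.21) and SPTLC1 (0.75) rose. Another ASAH1 probe set gave 0.13. Heat shock proteins and co-chaperones had 14 higher and 9 lower of 28 (median 0.24), and 13 higher and 13 lower after median shift (median 0.032), HSP90AA1 (1.10) and HSPH1 (1.09) rising and DNAJB1 (-0.65) and STUB1 (-0.56) falling. Interferon response genes had 15 lower and 9 higher of 27 (median -0.30). IFIT3 (1.54) and IFIT1 (1.29) rose, and IFI35 (-0.85) and the kinase TYK2 (-0.71) fell.

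Surface and structural genes also went both ways. Of 41 extracellular matrix and integrin genes 21 were lower and 13 higher (median -0.23). Integrin subunits ITGAV (2.18), ITGB8 (2.02) and ITGB1 (1.40) and the proteoglycan VCAN (1.10) rose, and the collagen COL4A2 (-0.91) fell. Of 26 cytoskeletal genes 16 were lower and 6 higher (median -0.22), the calponin CNN2 (-0.85) falling and caldesmon (CALD1, 1.01), CNN3 (0.47) and MRTFB (0.61) rising. Astrocyte, stem and mesenchymal glioma markers had 13 higher and 11 lower of 29 (median 0.05). MET (1.42) and the kinase DCLK1 (2.44) rose, nestin (NES) fell from a mean of 11.17 to 10.17, and GFAP (-0.46) fell, while a MET probe set gave -0.01.

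RNA processing and chromatin genes were divided as well. Of 36 genes of the small RNA and cleavage-polyadenylation machinery 21 were higher and 10 lower (median 0.53). NUDT21, which sets poly(A) site choice, differed by 2.04 on the probe set used and by -0.47 on another, with no overlap between the groups on either. The poly(A) polymerase PAPOLA differed by 1.32 (other probe sets down to 0.15), the deadenylase CNOT6L by 1.30, the exonuclease XRN2 by 0.96 and the microRNA processing enzyme DICER1 by 1.59, all called. Spliceosome genes had 27 higher and 28 lower of 65 (median 0.01), MBNL1 (1.59) and SON (0.87) rising and PRPF19 (-0.83) and PRPF6 (-0.70) falling. Chromatin genes had 30 higher and 27 lower of 66 (median 0.04), with HDAC9 (1.75), KAT6A (1.02), KMT2C (0.77) and BAZ1B (0.70) higher. The medians of the spliceosome, chromatin, glioma marker and sphingolipid lists were below 0 after median shift and after quantile normalization.

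Long noncoding transcripts had 6 higher and 4 lower of 11 (median 0.93). SOX2-OT, which overlaps the SOX2 gene, differed by 2.19, OIP5-AS1 by 1.46 (another probe set -0.12) and NORAD by 1.02, all called higher, while the snoRNA host SNHG17 (-0.76) and DANCR (-0.70) fell. Overlapping and antisense genes are told apart only by the design of the probe sets, which was not examined. Of 9 imprinted genes 4 were lower and 2 higher (median -0.09), PHLDA2 (-1.03) and IGF2R (-0.26) falling with MEST and SGCE (0.58) rising.

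Genes called higher and genes called lower differed in their length on the genome. Genomic spans were those of RefSeq genes (GRCh38.p14), available for 7759 of the 7760 genes. The median span was 54124 bases for genes called higher, 71154 bases for those called over 2-fold higher, 19311 bases for those called lower and 29827 bases for those not called. The genes were divided by span into 4 sets of 1939 or 1940. In the shortest set (up to 12723 bases) 12.8% were called higher and 75.9% lower, with a median difference of -0.53. In the longest set (72929 bases and over) 60.1% were higher and 29.0% lower, with a median of 0.42. The sets between had medians of -0.33 and 0.07. With ETV6 siRNA alone the medians were 0.01 in the shortest and -0.01 in the longest set.

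**Figure D5:**
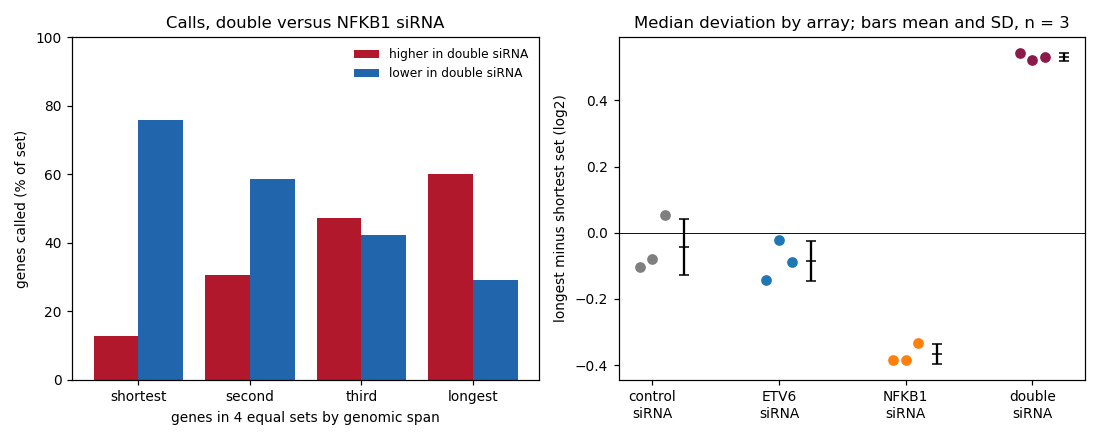
Left, share of genes called higher or lower in double siRNA (y axis, % of the set) in 4 equal sets of genes by genomic span (x axis). Right, median deviation of the longest set minus that of the shortest set in each array (points, log2) with group mean and SD (n = 3): double siRNA arrays lie at 0.52 to 0.54 and NFKB1 siRNA arrays at -0.38 to -0.33.

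The relation to span was seen in the single arrays too. For each gene the deviation from its mean over the 12 arrays was taken, and the median over the shortest set was subtracted from the median over the longest. This measure was 0.521 to 0.544 in double siRNA and -0.385 to -0.332 in NFKB1 siRNA. It was -0.104 to 0.053 with control siRNA and -0.143 to -0.024 with ETV6 siRNA. The double siRNA and NFKB1 siRNA arrays thus lay on opposite sides of the other 6. The lists above differ in span, with a median span of 8667 bases for the mitochondrial ribosomal protein genes and of 64635 bases for the DNA repair genes. The spike-in and ACTB 3' to 5' measures set only double siRNA apart from the other 9 arrays. The part of span and of these measures in the list counts was not tested.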

How the data were processed

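Total RNA of U251 cells was measured on Affymetrix expression arrays, 12 arrays in 4 groups of 3, 1 array per sample. The values deposited by the authors are probe set levels on a log2 scale. Background correction, summarization, normalization and the choice of the 19520 probe sets are not given in the sources used here, so levels are relative and array-wide shifts depend on that processing. No 2 arrays were identical. The platform's probe table named 1 gene for 17313 probe sets, several for 857 and none for 1293, beside 57 controls, and 17307 matched RefSeq (0 symbols updated).

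Each of 10346 genes was represented by its brightest probe set (mean of the 12 arrays). A floor at the 25th percentile of these means (7.54) was applied, from which ETV6 and NFKB1 were exempt, and 7760 genes passed. A high level in 1 group alone could lift a gene over the floor. A model with 1 mean per group was fitted to the 12 arrays in R 4.3.3 by limma 3.58.1 (lmFit, eBayes; degrees of freedom 8 residual, 3.41 prior), with two-sided tests and Benjamini-Hochberg adjustment. With 3 arrays per group the smallest p of an exact permutation test is 0.1. The number of arrays limits the precision. The fit was tested on simulated data.

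Named genes were both targets, the 12 highest and 12 lowest called differences without overlap between groups (names without annotation left out), up to 4 members per list with the smallest adjusted p, the 6 highest and 6 lowest called the same way in both ETV6 siRNA comparisons, and the 4 highest and 4 lowest differences between the effects. The groups, members and lists were chosen with earlier results of these data known. Lists have no test. Alternatives concerned array scaling, the filter, probe sets, array weights, the variance model, the arrays fitted, the replicate number and each array left out.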

Additional observations from a re-analysis of the deposited data

Results flagged for a closer look

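The effect of ETV6 siRNA differed with and without NFKB1 siRNA by limma's test of the difference itself, for 6698 of 7760 genes. Among them ETV6 differed by 0.81, the smaller drop being the one with NFKB1 siRNA present, but on a second ETV6 probe set the difference was 0.30 and not called (adjusted p = 0.080 by limma). The lowest differences were -2.22 for HMOX1, -1.31 for HECTD3, -1.27 for TMEM158 and -1.27 for C8orf58. The highest were 3.89 for PI15, 3.54 for LRRC58, 3.46 for BCAT1 and 3.42 for SPOPL. The 3 double siRNA arrays were also those with the lowest poly-A spike-in levels (7.45 to 7.56) and the highest ACTB 3' over 5' values (2.05 to 2.16), and the part of this in the differences was not tested.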

How the results depend on the processing

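Of 152 genes named by the rules above 151 were called, and 150 kept call and direction in each of 22 alternatives that tested them. Of the alternatives 6 were added after seeing the data and leave out a control or ETV6 siRNA array. Among the 152 EGLN1 lost its call with the mean of its probe sets. Most of the 152 were chosen for a small adjusted p or a large difference, which makes a lost call unlikely. Genes named after their values were seen are not in this count. Of those IL6 and CCL2 lost their call after median shift and after quantile normalization. With the filter at the 50th percentile 1900 genes were called higher and 4418 in the difference between the effects, and with every probe set tested on its own 7388 probe sets were higher, 7731 lower and 14416 in the difference. Fewer genes or more probe sets were tested in these by construction. Array weights gave 513 genes higher in both ETV6 siRNA comparisons, 565 lower in both, 1119 in opposite directions, and an NFKB1 difference of -0.23 (adjusted p = 0.0351 by limma), and the cause was not tested.

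With 1 array left out, 2829 to 2945 genes were higher and 3846 to 4029 lower, 30 to 257 were higher in both comparisons, 45 to 159 lower in both, 292 to 729 opposite, and 6516 to 6711 differed between the effects. The highest counts of shared calls came without the third control siRNA array. The ETV6 difference ranged from -1.37 to -1.30 and that of NFKB1 from -0.30 (adjusted p = 0.00729 by limma, without the third NFKB1 siRNA array) to 0.15.

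List medians changed sign as follows, and the cause was not tested. After median shift they were -0.20 (spliceosome), -0.17 (chromatin), -0.16 (glioma markers) and -0.21 (sphingolipid), and after quantile normalization -0.037, -0.13, -0.013 and -0.13. With the filter at the 50th percentile they were -0.69 (ETS), -0.32 (cytokines), -0.000685 (spliceosome), -0.043 (glioma markers), -0.15 (sphingolipid) and 0.37 (receptor tyrosine kinases). The mean of probe sets gave -0.069 for glioma markers and -0.024 for sphingolipid, and array weights -0.024 for sphingolipid. With 1 array left out the medians ranged from -0.011 to 0.041 (spliceosome), -0.0025 to 0.066 (glioma markers), -0.027 to 0.030 (sphingolipid) and -0.049 to 0.026 (receptor tyrosine kinases).

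The replicate number was not used as a block, since same-numbered arrays of both groups did not deviate together (r of -0.08, 0.15 and 0.00 over genes) and only replicate 2 matched its own number best. With the replicate block 2918 genes were higher and 3988 lower, 61 and 84 shared, 539 opposite, and 6682 differed between the effects.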
